A study of Mus musculus with 12 samples.

Results

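The 9 genes Klf2, Lef1, Tcf7, Foxp1, Bach2, Satb1, S1pr1, Ccr7 and Igfbp4, grouped as resting and central regulatory T cell (Treg) genes, were taken by symbol from a table of 26609 genes. All 9 were present, and all 9 were among the 13692 genes that passed the filter on low counts. Tregs had been sorted by flow cytometry, by the gate CD4+CD25hiCD127lo on single cells, out of the mesenteric lymph nodes of untreated SAMP/YitFC mice, a strain that develops chronic ileitis spontaneously. By title there were 3 libraries in each of 4 groups: wild type (WT, strain SAMP/YitFC-WT) male, WT female, knockout (KO, strain SAMP/YitFC-ERb-KO) male and KO female. The KO strain is described as lacking estrogen receptor beta, gene Esr2, in the whole body, and the design compared genotypes within each sex and the sexes within each genotype. The labels give neither an age nor the exons that the KO allele removes. They do not tie each library to a mouse of its own, and p-values here thus cover the spread over these samples, which may be technical. They call the cells intestinal, while the protocol names the lymph nodes.

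Resting and central Tregs recirculate through lymphoid organs, as naive T cells do, before some of them turn into effector Tregs that settle in tissue. A set of transcription factors holds T cells in this resting state: KLF2 drives transcription of the homing receptors, LEF1 and TCF-1 (gene Tcf7) are the DNA-binding partners of beta-catenin in the Wnt pathway, FOXP1 restrains activation, BACH2 represses effector genes, and SATB1 organizes chromatin and is held down by FOXP3 in mature Tregs. CCR7 guides cells into the lymph node along its chemokine ligands, and S1PR1 senses sphingosine 1-phosphate and lets them leave again. IGFBP4 is a secreted protein that binds insulin-like growth factors; its transcript is abundant in naive T cells and is also made by other cell types.

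The libraries held 10.2 to 16.7 M counts in all. Treg markers summed to 3785 to 5336 CPM (counts per M counts of the library, scaled by the trimmed mean of M values, TMM), and Foxp3, the defining factor of Tregs, stood at 769.6 ± 109 CPM in WT-titled and 739.7 ± 143 CPM in KO-titled libraries (mean ± SD, n = 6 each). Counts of Esr2 did not follow the titles: they were 0, 1 and 14 in WT male, 0, 133 and 159 in WT female, 8, 2 and 95 in KO male and 161, 94 and 128 in KO female. Whether the counted exons lie in the deleted part is not given, so these counts do not settle the genotype. In 4 of the 12 libraries Xist and Y-linked genes (Uty, Kdm5d, Eif2s3y, Ddx3y) went against the titled sex: WT female 2, KO male 1, KO male 2 and KO female 1. The groups below are therefore those of the titles, the terms KO-titled and WT-titled are used, and results are also given for the 8 other libraries, among which the KO male group has 1 library.

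KO-titled libraries had higher levels of 2 of the 9 genes than WT-titled libraries, averaged over the sexes: Lef1 at 1.51-fold and Igfbp4 at 4.01-fold. No gene of the 9 passed in the other direction, and all 9 fitted differences were positive, as were 52.2% of those over all genes, with a median log2 fold change of 0.30 against 0.02 over all genes tested. Of all genes tested, 0.606% were called higher and 0.898% lower by the same rule, an adjusted p under 0.05 in edgeR's quasi-likelihood test with Benjamini-Hochberg adjustment over all 13692 genes. At an unadjusted p under 0.05 there were 6 of 9 in this fit of all 12 libraries, where 7.84% of all genes were higher at that level. In the 8 libraries that matched their titled sex, where KO male has 1 library, 8 of 9 differences were positive. The median there was 0.42, against -0.05 over all genes tested. In bulk libraries, fewer cells of a type and less RNA of a gene per cell cannot be told apart.

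The 250 bases before the annotated start of Lef1 and Igfbp4, the 2 genes that passed, are shown as they stand in RefSeq on GRCm38.p6, for Lef1 before its most upstream start. Capitals mark the letters CACCC, or GGGTG where they lie on the other strand, which form the core of sites bound by KLF family factors such as KLF2. The Lef1 window is chr3:131110047-131110296 on the plus strand, with 66.4% G and C. The Igfbp4 window is chr11:99040994-99041243 on the plus strand, with 69.2% G and C.
Lef1: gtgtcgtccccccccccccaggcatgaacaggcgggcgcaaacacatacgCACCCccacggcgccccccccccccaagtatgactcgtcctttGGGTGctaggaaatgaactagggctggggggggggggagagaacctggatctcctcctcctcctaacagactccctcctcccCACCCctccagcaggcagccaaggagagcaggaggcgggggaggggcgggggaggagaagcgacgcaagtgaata
Igfbp4: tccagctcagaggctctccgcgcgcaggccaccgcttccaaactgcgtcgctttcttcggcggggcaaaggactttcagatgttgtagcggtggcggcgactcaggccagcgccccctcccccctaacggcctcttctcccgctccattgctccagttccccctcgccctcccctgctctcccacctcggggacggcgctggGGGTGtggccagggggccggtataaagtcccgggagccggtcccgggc
The Lef1 window held these letters 3 times and the Igfbp4 window 1 time. Of all 32851 RefSeq windows of this length, 52.0% held CACCC on either strand, so the letters are common. RefSeq had windows for 7 of the 9 genes, 17 windows in all, and CACCC was found in 14 of them, in every one of the 7 genes but Bach2. Some windows of a gene overlap, such as those of Lef1 that start at 131110047 and 131110073, so the windows are not independent. The TCF/LEF core CTTTGA (reverse TCAAAG), in 13.8% of all windows, was found in 3 windows, 1 each of Lef1, Bach2 and Foxp1. The letters GGTCA (reverse TGACC), the core repeated in an estrogen response element, stood in 4 windows, 1 each of Lef1, Tcf7, Foxp1 and Satb1, and in 35.2% of all windows. The 3 windows with CTTTGA and the 4 with GGTCA all lie inside the annotated spans of their genes, not upstream of them. The longer KLF sequence CCACGCCC, the forkhead sequence TGTTTAC, the AP-1 and BACH sequence TGACTCA and the full palindromic estrogen response element, GGTCA and TGACC with 3 bases between them, were in none of the 17 windows, and in 4.79%, 3.17%, 4.46% and 0.0639% of all windows.

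**Figure D1:**
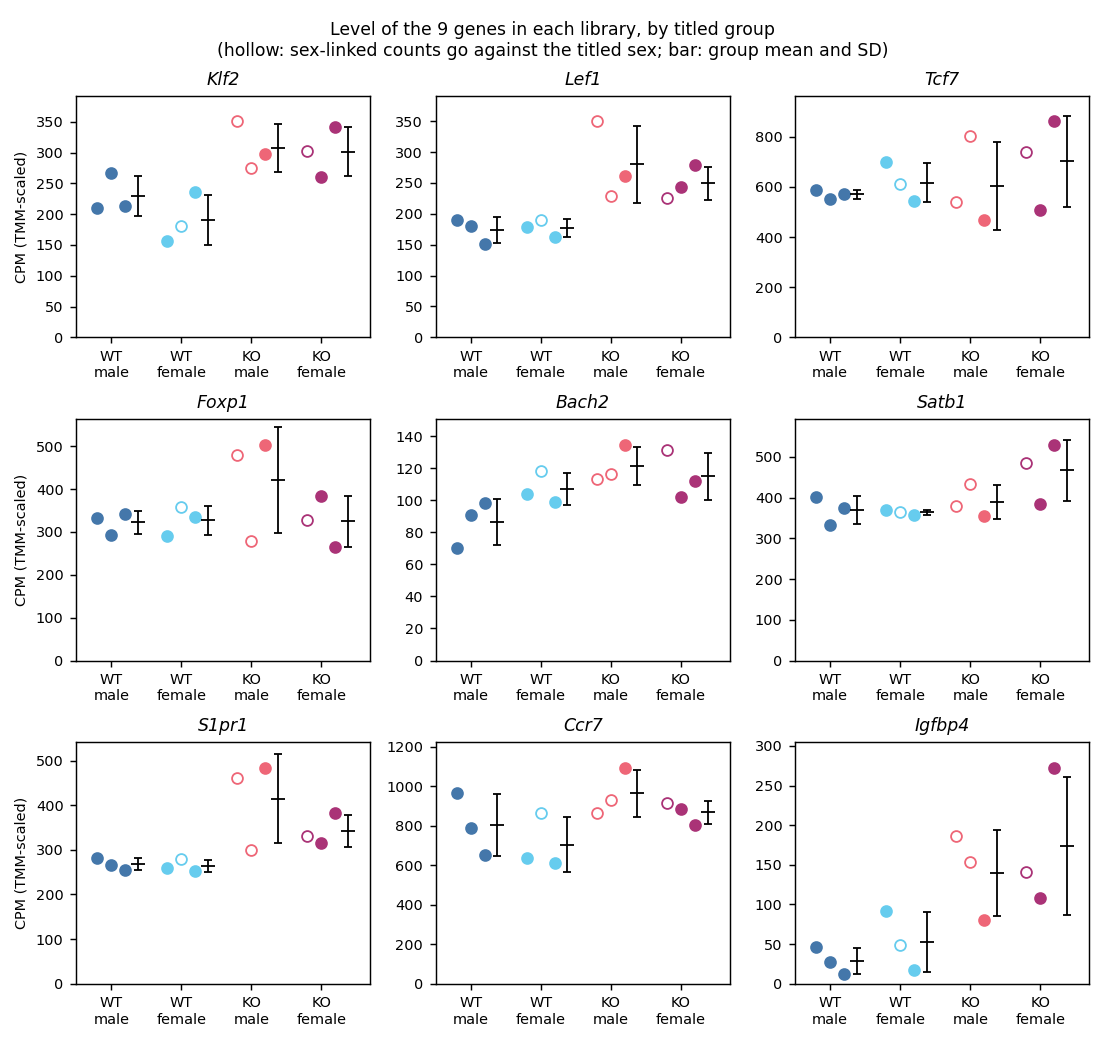
Level of each gene in CPM (vertical axes, each starting at 0) in the 12 libraries by titled group; points are libraries, hollow points are the 4 libraries whose sex-linked counts went against their title, and bars are the group mean and SD (n = 3). The 6 KO-titled libraries lie above the 6 WT-titled libraries for Lef1 and S1pr1.

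Among the transcription factors, Lef1 passed the test. Its levels in WT male were 190.2, 180.4 and 151 CPM, and in WT female 179, 191 and 162 CPM. In KO male they were 349, 229 and 261 CPM, and in KO female 226, 244 and 279 CPM. The lowest KO-titled library, KO female 1, lay above the highest WT-titled library, WT female 2, so the groups did not overlap; 0.971% of all genes were separated this way with KO above WT. The log2 fold change was 0.59 (SE 0.12, 95% interval 0.33 to 0.85, adjusted p = 0.0314 by edgeR). It was 0.59 again in the 8 libraries that matched their titled sex, with an adjusted p of 0.0746. Leaving out single libraries kept the log2 fold change of Lef1 between 0.49 and 0.65, and the call was lost without WT male 2 (adjusted p = 0.0730), WT male 3 (0.0802), WT female 1 (0.0845), WT female 2 (0.0684), WT female 3 (0.107), KO male 3 (0.0510), KO female 1 (0.0593) or KO female 3 (0.0993).

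Tcf7 encodes TCF-1, the closest relative of LEF1 in T cells, and it did not pass. It was at 590.0, 551 and 570.1 CPM in WT male and at 699, 611 and 543 CPM in WT female. KO male had 539, 802 and 469.7 CPM, and KO female 739, 507 and 861 CPM. The KO-titled libraries thus held both the 3 highest and the 3 lowest levels of Tcf7 among the 12, and the coefficient of variation was 25.7% over the 6 KO-titled against 9.62% over the 6 WT-titled libraries. KO minus WT for Tcf7 was 0.13 on the log2 scale (SE 0.15, adjusted p = 0.717 by edgeR), with a 95% interval from -0.19 to 0.46. In the 8 libraries that matched their titled sex it was -0.09.

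Klf2 lay just outside the threshold. WT male libraries had 209.9, 267 and 213 CPM, and WT female 156, 181 and 236 CPM. KO male had 351, 275 and 298 CPM, and KO female 302, 261 and 341 CPM. One WT-titled library, WT male 2 at 267 CPM, lay above the lowest KO-titled library, KO female 2 at 261 CPM, and the rest were separated. KO minus WT for Klf2 was 0.54 on the log2 scale (SE 0.13, 95% interval 0.27 to 0.81, adjusted p = 0.0501 by edgeR). In the 8 libraries that matched their titled sex it was 0.48 with an adjusted p of 0.190.

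Foxp1, a forkhead factor of T cell quiescence, and Satb1, the chromatin organizer, did not pass. Foxp1 stood at 333, 292 and 342 CPM in WT male and 290.3, 358 and 334 CPM in WT female, against 479, 278 and 504 CPM in KO male and 329, 383 and 264 CPM in KO female. The KO-titled libraries again lay on both sides of the WT-titled ones, with a coefficient of variation of 27.1% against 8.48%. The log2 fold change of Foxp1 was 0.19 (95% interval -0.13 to 0.50, adjusted p = 0.582 by edgeR). Satb1 ranged from 333 to 402 CPM with a median of 367 in WT-titled libraries and from 354 to 529.7 CPM with a median of 409 in KO-titled libraries. Its log2 fold change was 0.22 (95% interval -0.02 to 0.45, adjusted p = 0.354), and the groups overlapped. In the 8 libraries that matched their titled sex the values were 0.33 for Foxp1 and 0.11 for Satb1.

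Bach2, the repressor of effector genes, ranged from 70.1 to 118 CPM with a median of 98.7 in WT-titled and from 102 to 135 CPM with a median of 115 in KO-titled libraries. WT female 1 and WT female 2 lay within the KO-titled range. KO minus WT for Bach2 was 0.30 on the log2 scale (SE 0.12, 95% interval 0.05 to 0.55, adjusted p = 0.224 by edgeR). It was 0.34 in the 8 libraries that matched their titled sex. The lowest library of all was WT male 1.

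The receptors came next to the threshold or did not reach it. S1pr1, the exit receptor, was at 283, 266 and 256 CPM in WT male and 259, 279 and 252 CPM in WT female. KO male had 462, 299.7 and 484 CPM, and KO female 331, 314 and 383 CPM. The groups did not overlap, and the WT-titled libraries were close together, with a coefficient of variation of 4.77% against 20.7% in the KO-titled ones. The log2 fold change of S1pr1 was 0.51 (SE 0.12, 95% interval 0.24 to 0.77, adjusted p = 0.0528 by edgeR), and 0.63 with an adjusted p of 0.0678 in the 8 libraries that matched their titled sex.

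Ccr7, the lymph node homing receptor, did not pass. It ranged from 613 to 967 CPM with a median of 720.1 in WT-titled libraries and from 802 to 1093 CPM with a median of 900.4 in KO-titled libraries. WT male 1, at 967 CPM, lay above 5 of the 6 KO-titled libraries. KO minus WT for Ccr7 was 0.28 on the log2 scale (SE 0.13, 95% interval 0.01 to 0.55, adjusted p = 0.290 by edgeR), and 0.42 in the 8 libraries that matched their titled sex.

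Igfbp4 had the largest difference of the 9 and the largest spread. It was at 46.1, 27.2 and 12.8 CPM in WT male and at 92.2, 48.8 and 17.2 CPM in WT female. In KO male it was at 187, 153 and 80.7 CPM, and in KO female at 141, 108 and 272 CPM. From WT male 3 to KO female 3 the level differed 21.3-fold, and 1 WT-titled library, WT female 1, lay above the lowest KO-titled library, KO male 3. For Igfbp4 the log2 fold change was 2.00 (SE 0.40, 95% interval 1.15 to 2.86, adjusted p = 0.0295 by edgeR). In the 8 libraries that matched their titled sex it was 1.63 with an adjusted p of 0.211. The call for Igfbp4 was also lost without WT male 2 (adjusted p = 0.0775), WT male 3 (0.0807), WT female 2 (0.0710), WT female 3 (0.0589), KO female 1 (0.0673) or KO female 3 (0.0927).

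**Figure D2:**
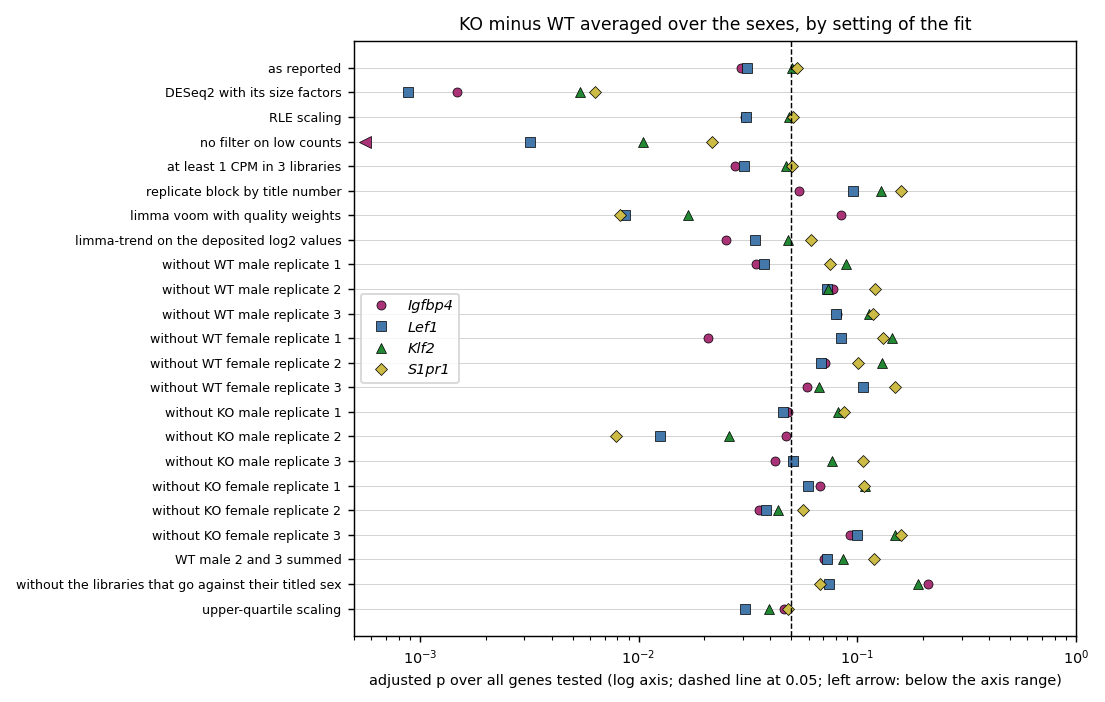
Adjusted p over all genes tested (log axis) for Igfbp4, Lef1, Klf2 and S1pr1 in KO minus WT averaged over the sexes, for each setting of the fit; the dashed line is 0.05 and the arrow marks Igfbp4 with no filter on low counts, below the axis range. Points of all 4 genes lie on both sides of the line.

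Markers of several other cell types were also higher in KO-titled libraries, in part in the same libraries as Igfbp4, and their part in the result was not tested. The 12 B cell markers summed to 47.6 to 251 CPM in WT-titled and 190.2 to 438 CPM in KO-titled libraries. Of the 12, 7 were called higher by edgeR, as were 0.606% of all genes tested. The 11 macrophage and monocyte markers in the table summed to 28.6 to 381 CPM and 179 to 439.9 CPM, with none called higher. Neutrophil markers summed to at most 0.820 CPM in WT-titled and 1.78 to 52.5 CPM in KO-titled libraries, with 4 of 5 tested called higher; in WT male S100a8 and S100a9, and in WT female Ngp, Camp and Lcn2, were at 0 in every library. Plasma cell markers summed to 4.99 to 43.3 CPM and 30.9 to 307 CPM, with 1 of 4 tested called higher. WT female 1 had the highest Igfbp4, B cell, macrophage and plasma cell sums of the 6 WT-titled libraries, and WT male 3 the lowest of each. KO female 3 had the highest Igfbp4, B cell, macrophage and neutrophil values of the 6 KO-titled libraries. Other KO-titled libraries did not keep this order: KO male 3, lowest of them in Igfbp4, had 349.5 CPM of B cell, 371 CPM of macrophage and 265 CPM of plasma cell markers, and KO female 2, with 108 CPM of Igfbp4, had the highest plasma cell sum of the 12 libraries. Dendritic cell markers summed to 6.76 to 73.5 CPM in WT-titled and 20.5 to 40.6 CPM in KO-titled libraries. Stromal and endothelial markers summed to 2.11 to 5.29 CPM and 5.404 to 37.0 CPM, with the highest sum in KO male 3. Of the dendritic cell markers 9 of 11 were tested and of the stromal and endothelial ones 6 of 13, and none was called higher. CD8 T and NK cell markers summed to 129 ± 27.8 CPM in WT-titled and 168 ± 22.8 CPM in KO-titled libraries (mean ± SD). Conventional CD4 T cell markers summed to 57.6 ± 13.0 CPM and 67.6 ± 6.94 CPM, and no marker of these 2 lists was called higher. None of the 8 Treg markers was called higher.

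**Figure D3:**
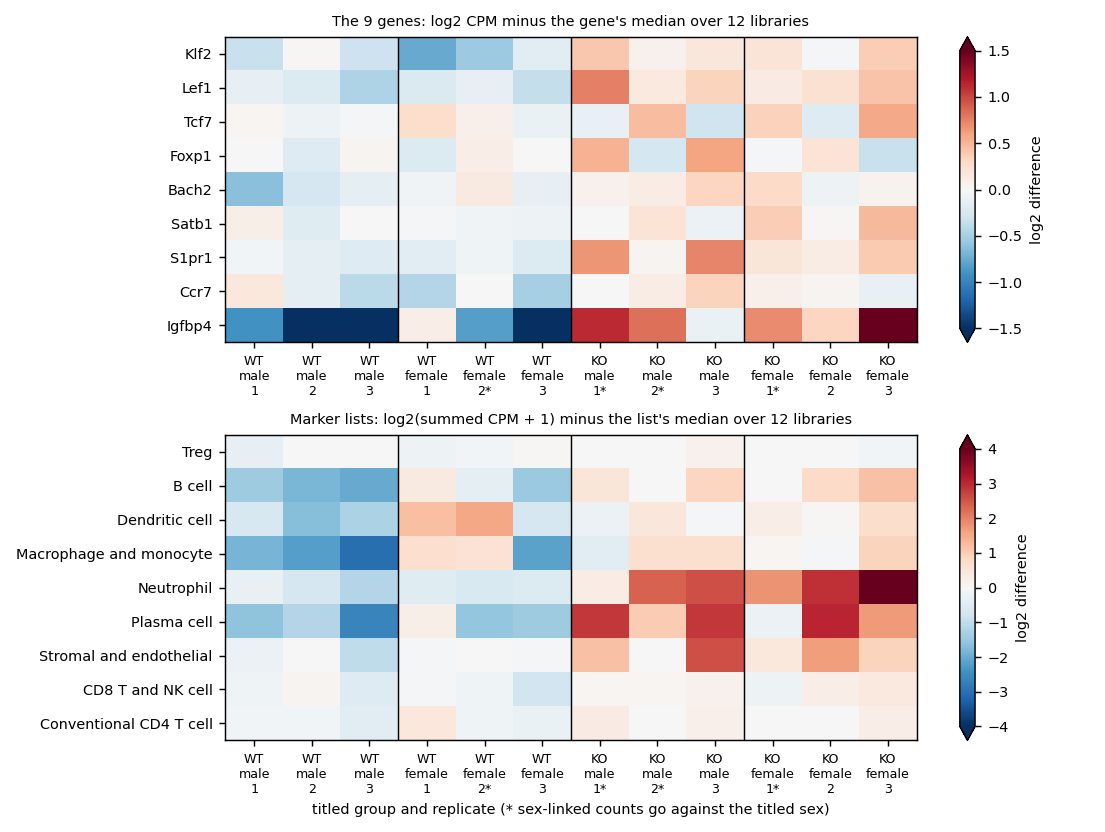
Upper panel, log2 CPM of the 9 genes minus the gene's median over the 12 libraries; lower panel, log2 of the summed CPM plus 1 of each marker list minus the list's median; columns are libraries, and an asterisk marks those whose sex-linked counts went against the title. Colours saturate at the ends of each scale. Igfbp4 is lowest in WT male 3, where the B cell and macrophage sums are also lowest.

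The order of the levels per length, in CPM per kb of annotated exons, was led by the homing receptor in both genotypes. In the 6 WT-titled libraries Ccr7 stood at 381 ± 72.5 CPM per kb (mean ± SD), Tcf7 at 226 ± 21.8, Klf2 at 114 ± 21.2 and S1pr1 at 87.2 ± 4.16. In the 6 KO-titled libraries they kept this order, at 463 ± 49.5, 248.7 ± 64.0, 165 ± 19.2 and 124 ± 25.7 CPM per kb. Ccr7 and Tcf7 did not overlap within either genotype, while the ranges of Klf2 and S1pr1 overlapped in both. The lower 5 differed in order between the genotypes. In WT-titled libraries Foxp1 (23.6 ± 2.00 CPM per kb), Lef1 (19.97 ± 1.81) and Satb1 (19.3 ± 1.19) came before Bach2 (9.73 ± 1.60) and Igfbp4 (9.22 ± 6.61), and Lef1 and Satb1, like Bach2 and Igfbp4, did not differ beyond their spread. In KO-titled libraries Igfbp4 (35.5 ± 15.3 CPM per kb), Lef1 (30.1 ± 5.23), Foxp1 (27.1 ± 7.36) and Satb1 (22.5 ± 3.61) overlapped, neighbour by neighbour, and Bach2 (11.9 ± 1.24) lay below them all.

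Within each titled sex, no member passed. In males 5 of the 9 genes were at an unadjusted p under 0.05, where 7.92% of all genes were higher at that level, and the smallest adjusted p was 0.106 by edgeR, for Lef1, with 0.0584% of all genes called higher. Groups did not overlap for Klf2, Lef1, Bach2, S1pr1 and Igfbp4, and 6.95% of all genes were separated in this way with KO above WT. In females 5 were at an unadjusted p under 0.05, the smallest adjusted p was 0.459, for Klf2, and over the whole series of genes 0% were called; 2.94% of all genes were higher at the unadjusted level. The groups did not overlap for Klf2, Lef1, Satb1, S1pr1 and Igfbp4, against 9.2% of all genes. DESeq2 called 3 of the 9 genes in males, where it called 2.65% of all genes it tested, and 0 in females, where it called 0.137%.

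The log2 fold changes by sex put Igfbp4 first in both. It was 2.29 in males (95% interval 1.07 to 3.51) and 1.72 in females (0.52 to 2.91), with adjusted p of 0.107 and 0.499 by edgeR. Lef1 had 0.69 in males and 0.49 in females, S1pr1 had 0.63 and 0.38, and Klf2 had 0.42 and 0.66. Bach2 was at 0.49 in males and 0.10 in females, and Foxp1 at 0.38 and -0.01. The differences between these effects, the interaction, passed for none of the 9 genes, with a smallest adjusted p of 0.900 by edgeR. It passed for 0% of all genes. At an unadjusted p under 0.05 there were 0 of 9 (4.81% of all genes). DESeq2 called 0 of 9 (0.00407% of all genes it tested). The interaction ranged from -0.57 (Igfbp4) to 0.29 (Satb1), with Bach2 and Foxp1 both at -0.39. The interaction of Igfbp4 was 0.32 in the 8 libraries that matched their titled sex.

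**Figure D4:**
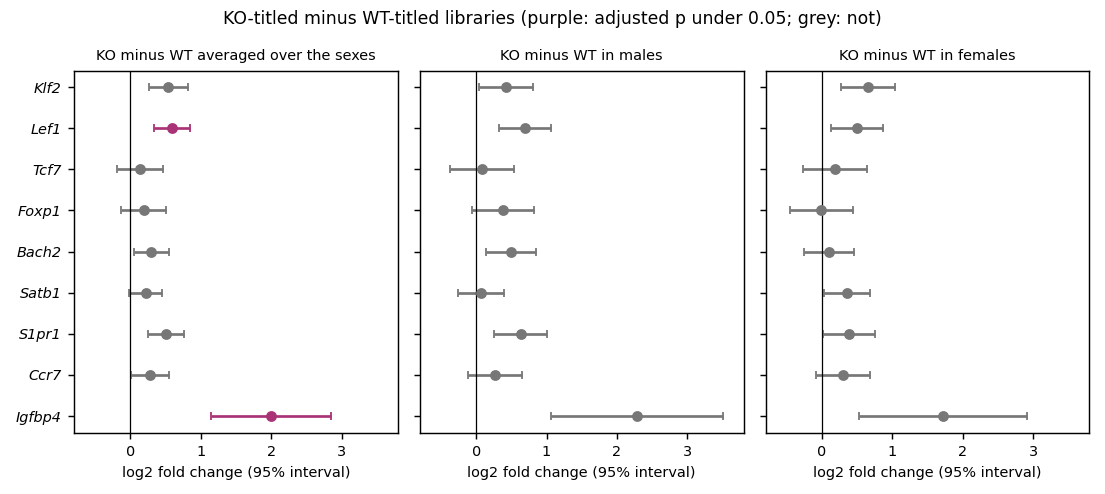
log2 fold change of KO-titled minus WT-titled libraries for the 9 genes (points, with 95% intervals), averaged over the sexes, in males and in females. Purple marks an adjusted p under 0.05; only Lef1 and Igfbp4, in the average, are purple.

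Female minus male differences passed for no member in either genotype, and for 0% of all genes. In WT none of the 9 was at an unadjusted p under 0.05, where 6.52% of all genes were, and the values ran from -0.27 (Klf2) to 0.88 (Igfbp4). Bach2, at 0.31, was the 1 gene whose female libraries, at 99.1 to 118 CPM, all lay above the male ones, at 70.1 to 98.3 CPM; 7.55% of all genes did so. In KO none was at an unadjusted p under 0.05, where 5.27% of all genes were, with values from -0.37 (Foxp1) to 0.31 (Igfbp4) and S1pr1 at -0.28. Since 4 of the 12 libraries went against the titled sex, these comparisons are between titles. DESeq2 called none of the 9 in either comparison, where it called 0.249% of all genes it tested in WT and 0% in KO.

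Within the 6 KO-titled libraries Tcf7 and Foxp1 stood in nearly opposite order, except that KO male 1 lay above KO female 2 in both. KO female 3, KO male 2 and KO female 1 were high in Tcf7 and had 264, 278 and 329 CPM of Foxp1, while KO male 3, KO female 2 and KO male 1 were low in Tcf7 and had 504, 383 and 479 CPM of Foxp1. Over all 12 libraries Pearson's r of their log2 CPM was -0.76 (permutation p = 0.00383, 0.0306 after Benjamini-Hochberg adjustment over 36 pairs of the 9 genes) and Spearman's rho was -0.85 (adjusted permutation p = 0.0156). Without the 2 libraries farthest from the median of Tcf7, r was -0.64, and in the 8 libraries that matched their titled sex it was -0.81. Within the 6 WT-titled libraries r was -0.31 (exact p = 0.581), and 0.87 without the 2 libraries farthest from their median of Tcf7. Within the 6 KO-titled libraries r was -0.93 (exact p = 0.0167, 0.371 adjusted over 72 relations), and -0.85 without the 2 farthest. Neither genotype passed alone.

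The same 3 KO-titled libraries were highest in Satb1. Tcf7 and Satb1 had r = 0.80 over the 12 libraries (permutation p = 0.00191, adjusted 0.0229) and rho = 0.62 (adjusted 0.114), with 0.62 without the 2 farthest libraries and 0.79 in the 8 that matched their titled sex. Their r was 0.34 within WT-titled (exact p = 0.494) and 0.92 within KO-titled libraries (exact p = 0.0222, adjusted 0.371). The libraries low in Tcf7 had plasma cell marker sums of 267 (KO male 1), 265 (KO male 3) and 307 CPM (KO female 2), and those high in Tcf7 had 75.6 (KO male 2), 30.9 (KO female 1) and 121 CPM (KO female 3). In the same order, totals were 11.7, 10.2 and 11.6 M counts against 14.1, 14.8 and 11.1 M counts. Their part in the split was not tested.

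**Figure D5:**
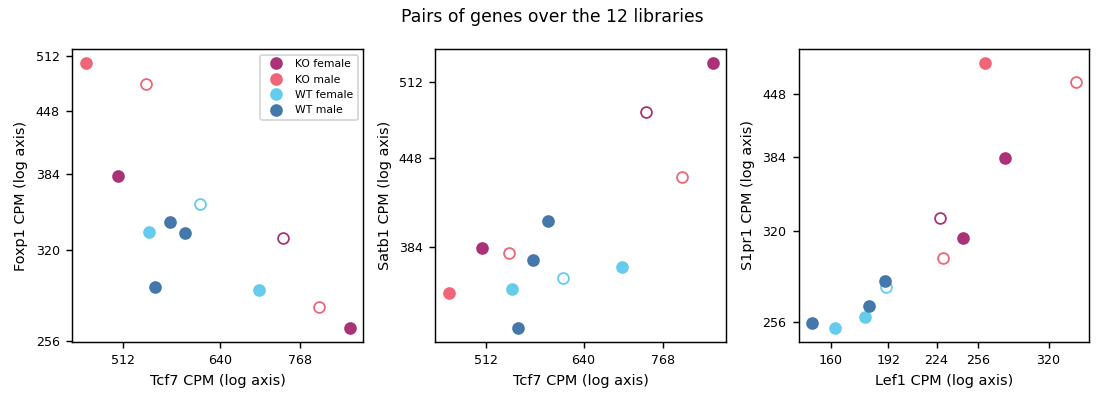
Pairs of genes over the 12 libraries, in CPM on log axes, coloured by titled group; hollow points are the libraries whose sex-linked counts went against the title. Among the KO-titled libraries, those high in Tcf7 lie lower in Foxp1 and higher in Satb1. For Lef1 against S1pr1 the KO-titled libraries form a set of their own.

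For Lef1 and S1pr1 the WT-titled and KO-titled libraries formed separate sets, so their relation was taken within each. Pearson's r was 0.84 within the 6 WT-titled (exact p = 0.0444, adjusted over 72 relations 0.400) and 0.74 within the 6 KO-titled libraries (exact p = 0.0792, adjusted 0.475). S1pr1 and Ccr7 had r = 0.98 within WT-titled (exact p = 0.00278, adjusted 0.150) and 0.31 within KO-titled libraries (exact p = 0.589). Klf2 and Tcf7 had r = -0.93 within WT-titled (exact p = 0.00417, adjusted 0.150) and 0.19 within KO-titled libraries (exact p = 0.663). No relation of the 72 passed after adjustment.

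The genes whose log2 CPM over the 12 libraries was most like that of each member were ranked by Pearson's r among 10833 others, as a description, since all values share libraries and depths. Igfbp4 was most like Cd68 (r = 0.96), a macrophage lysosomal protein, Fgd2 (0.95) and Ly6d (0.95). S1pr1 was most like Cd37 (0.94), a leukocyte tetraspanin, and Lef1 most like Dapl1 (0.92), Fn1 (0.91), the matrix protein fibronectin, and Cd37 (0.90). Foxp1 was most like Pitpnc1 (0.97), Sap130 (0.96) and Gphn (0.95). Klf2 had Tnfrsf26 (0.89) and Hsf1 (0.89) first, Tcf7 had Pnpla2, Mta1 and Shc1 (0.92 each), Bach2 had Arhgef18, Neurl4 and Ccdc88b (0.93 each), Satb1 had Prpsap2 (0.92) and Ccr7 had Mcrs1 (0.93).

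Related genes were counted in lists, each median being a log2 fold change averaged over the sexes, where the median over all tested genes was 0.02. Of 14 TCF/LEF and Wnt genes none passed (median -0.03), and Aes, a co-repressor of the family, had 0.30 (adjusted p = 0.179) and Ctnnb1, which encodes beta-catenin, 0.17 (0.480). Of 10 other KLF genes none passed (median 0.02), with Klf10 at -0.35 (0.145) and Klf6 at -0.56 (0.181). Of 10 tested S1P genes none passed (median 0.07), with the receptor S1pr4 at 0.49 (0.0531) and the phosphatase Sgpp1 at -0.39 (0.192). Of 8 tested lymph node entry genes none passed (median 0.03), with the adhesion ligand Selplg at 0.32 (0.0971). These are edgeR values with adjusted p in brackets, and the genes shown were taken from those with the smallest p of each list.

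Of 17 FOXO and PI3K-AKT genes none passed (median 0.01), with the cell cycle inhibitor Cdkn1b at -0.53 (adjusted p = 0.310 by edgeR). Of 4 tested FOXP and SATB relatives none passed (median 0.26), with Foxp4 at 0.40 (0.281). Of 6 tested IGF genes none passed (median 0.14), with Insr, the insulin receptor, at 0.33 (0.477) and Irs2 at 0.31 (0.629). Other resting T cell genes had 2 of 19 called higher and none lower, with a median of 0.26. Over all genes tested, 0.606% were called higher and 0.898% lower. Ly6c1 rose from 18.9 ± 4.24 to 39.4 ± 12.7 CPM (log2 fold change 1.07, adjusted p = 0.0196) and Nsg2 from 5.54 ± 2.05 to 12.4 ± 3.63 CPM (1.19, 0.0388).

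Prdm1 encodes BLIMP-1, a factor that drives effector differentiation and is repressed by BACH2. It was the 1 gene called lower among 12 BACH2 partners and targets (median 0.05) and among 32 effector Treg genes (median -0.19). Of all genes tested, 0.898% were called lower. Of the 32 effector Treg genes 22 were below 0 and 10 above 0, where 52.2% of all genes were above 0. Prdm1 went from 97.6 ± 27.7 CPM in WT-titled to 56.7 ± 9.15 CPM in KO-titled libraries (mean ± SD, n = 6 each). Its log2 fold change was -0.78 (SE 0.18, adjusted p = 0.0424 by edgeR), and -1.10 with an adjusted p of 0.0678 in the 8 libraries that matched their titled sex. Of the 12 single libraries, leaving out WT male 1, KO male 1, KO male 2 or KO female 2 kept the call for Prdm1, and each of the other 8 took its adjusted p to between 0.0536 and 0.128. For Ly6c1 the call was lost without WT male 3 (0.0558), WT female 3 (0.0592) or KO female 3 (0.0713), and for Nsg2 it was kept only without KO male 2 or KO female 2, with 0.0532 to 0.127 otherwise. In the 8 libraries that matched their titled sex Ly6c1 had 1.20 (adjusted p = 0.0598) and Nsg2 1.31 (0.109).

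Igfbp4 and Ccr7 lie near each other on chromosome 11 of GRCm38, at chr11:99041244-99054392 and chr11:99144196-99155077, with 89.803 kb and 1 protein-coding gene, Tns4, between them (GENCODE mouse release 21). Within 200 kb of either there were 12 annotated protein-coding neighbours, 7 of them tested, and none was called by edgeR in the average. Their log2 fold changes ran from -0.22 (Tns4, adjusted p = 0.863) to 0.65 (Cdc6, 0.246), with a median of 0.07. Wipf2 had 0.45, Rara, the retinoic acid receptor, 0.04, Top2a -0.14, Smarce1 0.08 and Krt222 0.07. Lef1 lies at chr3:131110471-131224356, Tcf7 at chr11:52252371-52283014, S1pr1 at chr3:115710433-115715072 and Klf2 at chr8:72319033-72321656. Bach2 lies at chr4:32238804-32586108, Foxp1 at chr6:98925338-99522721 and Satb1 at chr17:51736187-51833290. The annotated spans of Tcf7 and Satb1 overlap in part those of opposite-strand neighbours in the table, A630014C17Rik with 192 and Gm6934 with 1516 counts in all. The kit does not mark strand, so reads in bases shared by both genes cannot be told apart. Whether their exons share bases was not examined.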

How the data were processed

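Tregs from 12 libraries were profiled by RNA-seq, with SMART-Seq v4 cDNA and Nextera XT libraries per the labels' protocols. The authors deposited raw counts per gene symbol. The submitters' processing notes name HISAT2 2.0.5, featureCounts 1.5.0-p2 and GRCm38, and no strand setting is given in the sources used here. The deposited log2 values matched log2 CPM recomputed with TMM scaling, and served in an alternative only.

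The counts were tested with edgeR 4.0.16 (R 4.3.3): filterByExpr, TMM scaling, the robust quasi-likelihood test on 4 group means fitted over all 12 libraries, two-sided, Benjamini-Hochberg adjustment over 13692 genes, threshold 0.05. The common coefficient of variation between libraries, which edgeR terms biological, was 29.3% over all genes. Errors of log2 fold changes were taken from the F statistic. Correlations used log2 CPM with 100000 permutations, or all 720 pairings for 6 libraries. Steps were tested on simulated data.

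Groups came from the titles. In WT male the title number 2 occurs on 2 libraries, numbered 2 and 3 here. They were kept apart because they are listed as separate samples. Whether they share an animal is not given, and their values do not settle it: like every other pair within a group, they differed beyond counting noise. With both summed, none of the 9 genes passed, and 0.218% of all genes did. Members and lists were chosen with earlier results of these data known. The text names the 9 genes in every comparison, the passing genes of each related list (up to 4) or else the 2 with the smallest p (some are not reported here), the 3 genes most alike to each member, and the neighbours of Igfbp4 and Ccr7. Alternatives were DESeq2 1.42.0, limma 3.58.1 (voom with quality weights, and trend), RLE scaling, 2 other filters, a replicate block, each library left out, WT male 2 and 3 summed, the 8 libraries that matched their titled sex, only the groups compared and, chosen after seeing the data, upper-quartile scaling. Exon lengths and positions came from GENCODE release 21, promoters from RefSeq. Where a fit leaves a group with 1 library, that library is assumed to vary like the other groups.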

Additional observations from a re-analysis of the deposited data

How the results depend on the processing

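The number of the 9 genes that passed in KO minus WT averaged over the sexes was 2 as reported. It was 4 with DESeq2, with no filter on low counts and with upper-quartile scaling. It was 0 with the replicate block (0.0657% of all genes called) and with WT male 2 and 3 summed (0.218%). Without the 4 libraries whose sex-linked counts contradict the title, the median log2 fold change of the 9 genes was 0.42. With single libraries left out, 0 to 4 of the 9 passed, where 0.0844% to 3.79% of all genes were called. The 4 and the 3.79% were reached without KO male 2. DESeq2 called 4.18% of all genes it tested, the fit with no filter 2.55% and upper-quartile scaling 1.43%, against 1.5% as reported. The number of the 9 genes was 3 with RLE scaling (1.36% of all genes called) and the filter of at least 1 CPM in 3 libraries (1.47%). It was also 3 with voom (4.36%) and limma-trend (1.5%). In males, 0 as reported became 3 with DESeq2 (2.65% of all genes it tested were called), 2 with no filter (1.8%) and 0 to 3 with single libraries left out. The 3 came without KO male 2, where 5.13% of all genes were called. In females it became 1 with no filter (0.537%) and 4 with voom (12.4%, 1698 genes), and in female minus male in WT it became 1 with no filter (0.777%). With voom the adjusted p of Igfbp4 was 0.0838, and with no filter on edgeR's test it was 9.31e-38, with an SE of 0.15 against 0.40 as reported. With no filter the SE was 0.139 for each of Klf2, Lef1 and S1pr1. It thus hardly differed between these genes and Igfbp4, although Igfbp4 had the largest spread of the 9. Over the whole table the 206 called genes of the average became 9 with the block, 609 with DESeq2, 627 with no filter and 12 to 543 with single libraries left out. On the same 13692 genes the median log2 fold change, 0.02 as reported, was 0.03 with DESeq2.

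With the replicate block the log2 fold change of Lef1 was 0.58 (adjusted p = 0.0957) and that of Igfbp4 2.17 (adjusted p = 0.0539). Over 18 pairs of groups' libraries with the same title number the correlation of deviations from the group means ran from -0.39 to 0.13, with 1 above 0.1. Over 36 pairs with different numbers it ran from -0.22 to 0.35, with 10 above 0.1. The labels do not say what a number marks. With 3 libraries a group, these values cannot exclude a pairing by number.

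Values that changed sign were small, apart from those of Igfbp4 and Tcf7. Foxp1 in females, -0.01 as reported, was 0.00414 with DESeq2, 0.00556 with RLE scaling, 0.0125 with the filter of at least 1 CPM in 3 libraries, 0.0437 without the 4 libraries, 0.00420 with only the groups compared, 0.0232 with upper-quartile scaling and -0.15 to 0.12 with single libraries left out. Tcf7 in males was -0.0126 with voom, -0.31 without the 4 libraries and -0.18 to 0.23 with single libraries left out, and in the average it was -0.0875 without the 4. Satb1 in males was -0.0902 without the 4 and -0.0130 to 0.135 with single libraries left out. The interaction of Igfbp4 was 0.32 without the 4 and -1.10 to 0.11 with single libraries left out, female minus male in KO for Igfbp4 was -0.17 to 0.57, and Bach2 in females was -0.00438 to 0.18. Of 1167 alternative log2 fold changes, 1050 kept direction and side of the threshold and 20 changed sign. The causes were not tested. With 3 libraries a group and a common coefficient of variation of 29.3% over all genes, small differences cannot be seen. Among the members the gene's own coefficient was lowest for Satb1, at 14.8%, and highest for Igfbp4, at 45.8%, with Tcf7 next at 19.6%.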
